A study of Mus musculus with 8 samples.

Results

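The 10 genes described here are immediate early transcription factor genes: the AP-1 genes Fos, Fosb, Jun, Junb and Jund, the zinc finger genes Egr1, Egr2 and Egr3, the stress-responsive bZIP gene Atf3 and the orphan nuclear receptor gene Nr4a1. They were chosen by name, with earlier results of these data known. Of them, 10 of 10 were found, each in a single row, among the 19129 genes of the table. RNA sequencing was carried out on freshly isolated mouse pancreatic tumour isografts, that is tumours grown from transplanted mouse tumour material. Libraries from 4 mice are labelled MEKi and came from mice that received trametinib, a drug that blocks MEK, the kinase directly upstream of ERK, for 7 days. Libraries from the other 4 mice are labelled control. The strain, sex and age of the mice, the tumour line, what the control mice received and the time between the last dose and tissue collection are not stated in the labels.

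Immediate early genes are transcribed within minutes of a growth factor or stress signal, without new protein synthesis, and their mRNAs are short-lived. ERK, the kinase that MEK activates, phosphorylates the ternary complex factors that sit beside serum response factor at the promoters of Fos, Egr1 and related genes, while the kinases JNK and p38 act on Jun and Atf3 through other sites. FOS proteins must pair with JUN proteins to bind DNA as AP-1, whereas EGR proteins bind GC-rich sites alone. In pancreatic tumours these genes are used as a readout of the ERK cascade.

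The tissue label was checked against markers. All 7 epithelial tumour markers (Krt19, Krt7, Krt8, Krt18, Epcam, Cdh1 and Sox9) had reads in every library, with list means between 13.40 and 14.13 in the MEKi libraries and between 13.81 and 14.03 in the control libraries. Acinar markers, which come from normal exocrine pancreas, ranged far more widely, from 6.0 to 11.01 in the MEKi libraries and from 8.33 to 16.20 in the control libraries, with the highest values in control 2 and control 3. Values are on the authors' variance-stabilised scale, which is close to log2, so that a difference of 1 is about a doubling for an abundant gene and more than that for a gene with few reads. Reads in genes, recovered from these values, numbered between 20182531 and 38569550 in the MEKi libraries and between 20090101 and 31797960 in the control libraries. Libraries are called by their labels throughout, although the closest ones carry different labels: over all genes, MEKi 1 was nearest to control 4 (4.4 times the counting noise) and MEKi 2 to control 1 (5.1 times), against 10.4 times for the closest pair under a single label, control 1 and control 2. MEKi 4 stood apart from all 7 others, at 21.5 to 42.2 times the counting noise, and its value for the epithelial marker Epcam was 10.70, against 12.67 to 13.10 in the other MEKi libraries and 12.66 to 13.05 in the control libraries. These ratios rise with read depth, and MEKi 4 was the deepest library (38569550 reads). They also scale by total reads, so the many acinar reads of control 2 and control 3 enter the ratios of those libraries. Neither effect was corrected for. Whether each library carries its right label was not tested, and a wrong one would change what every MEKi minus control difference means. The drug's effect on its pathway could not be read from the labels either, since 14 ERK feedback and output genes had no called difference (described below).

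Promoter windows, from 250 bases before to 50 bases after an annotated start, were available from RefSeq (build GRCm38.p6) for 8 of the 10 genes. The windows with a match to a known immediate early element are shown as a description of sequence. A link between these matches and the way the genes varied across the libraries was not tested. Capitals mark the matches: a CArG box, the site of serum response factor, in Egr2; the core of the cyclic AMP response element (TGACGT, or ACGTCA where it lies on the opposite strand) in Fos, Egr2 and Atf3; and the EGR site (GCGNGGGCG or its reverse complement) in Fosb and Nr4a1.

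Fos, chr12:85473640-85473939, plus strand: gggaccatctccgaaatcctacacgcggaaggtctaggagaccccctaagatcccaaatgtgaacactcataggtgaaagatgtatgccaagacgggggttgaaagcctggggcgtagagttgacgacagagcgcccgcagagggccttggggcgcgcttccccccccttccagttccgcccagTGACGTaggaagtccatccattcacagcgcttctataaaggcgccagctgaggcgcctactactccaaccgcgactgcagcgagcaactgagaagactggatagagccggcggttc
Egr2, chr10:67537619-67537918, plus strand: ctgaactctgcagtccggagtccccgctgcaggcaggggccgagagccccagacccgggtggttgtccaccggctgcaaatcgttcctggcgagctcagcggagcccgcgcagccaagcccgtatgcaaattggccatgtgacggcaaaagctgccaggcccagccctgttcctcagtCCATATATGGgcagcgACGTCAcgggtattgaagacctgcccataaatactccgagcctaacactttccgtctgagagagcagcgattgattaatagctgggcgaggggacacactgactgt
Fosb, chr7:19309996-19310295, minus strand: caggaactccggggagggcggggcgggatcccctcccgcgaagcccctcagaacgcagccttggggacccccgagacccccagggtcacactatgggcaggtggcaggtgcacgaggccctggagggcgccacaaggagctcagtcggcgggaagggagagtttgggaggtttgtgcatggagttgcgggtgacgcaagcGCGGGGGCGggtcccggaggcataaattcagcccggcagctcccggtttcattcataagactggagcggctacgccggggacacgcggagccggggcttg
Nr4a1, chr15:101266596-101266895, plus strand: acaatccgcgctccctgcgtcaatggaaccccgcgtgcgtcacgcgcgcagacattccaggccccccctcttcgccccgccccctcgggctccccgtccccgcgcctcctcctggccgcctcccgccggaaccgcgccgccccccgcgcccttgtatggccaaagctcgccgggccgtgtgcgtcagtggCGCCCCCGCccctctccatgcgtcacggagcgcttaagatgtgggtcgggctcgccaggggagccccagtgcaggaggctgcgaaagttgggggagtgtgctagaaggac
Atf3, chr1:191183284-191183583, minus strand: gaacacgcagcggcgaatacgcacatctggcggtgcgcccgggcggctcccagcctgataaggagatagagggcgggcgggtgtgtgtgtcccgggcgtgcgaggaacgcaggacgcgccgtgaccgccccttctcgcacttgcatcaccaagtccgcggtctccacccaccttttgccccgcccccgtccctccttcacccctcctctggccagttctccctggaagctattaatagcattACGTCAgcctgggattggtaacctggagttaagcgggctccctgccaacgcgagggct

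Both strands were searched, and no matches overlapped each other. The CArG box was found for 1 of the 8 genes, Egr2, at position -72 from the start, and stood in 1.63% of all 32851 promoter windows. The response element core was found for 3 of 8 genes, at position -66 from the start in Fos, -56 in Egr2 and -8 in Atf3, against 7.51% of all windows. The EGR site was found for 2 of 8 genes, at position -50 in Fosb and -60 in Nr4a1, against 5.55% of all windows. The AP-1 site itself (TGANTCA, 7.81% of all windows) and the NR4A site (AAAGGTCA, 1.51%) were found in 0 of the 8. No match was found for Jun, Junb and Jund. The Jund window (70697489 to 70697788) ended before the gene start given below (70698949), so it does not cover that start. The Atf3, Nr4a1 and shown Egr2 windows lay inside the genes, away from their outer starts (191218039, 101254269 and 67535475). Positions in these windows are therefore counted from internal annotated starts. Egr1 and Egr3 had no window, and sites more than 250 bases before a start were not searched. Egr2 has several annotated starts, of which 1 is shown. A gene was counted if any of its windows matched, whereas the shares are per window. A match describes letters in these windows and was not tested as a binding site.

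The first comparison asked whether these genes, which lie downstream of MEK, differed between the labels. No difference was called. Of the 10 genes, 0 were called by limma at an adjusted p below 0.05, 0 reached an unadjusted p below 0.05, and limma voom on the recovered reads gave the same counts of 0 and 0. Across all 19129 genes limma called 0.00523%, which is 1 gene. The MEKi libraries lay entirely above or entirely below the control libraries for 0 of the 10 genes, against 1.27% of all genes. The mean was higher in the MEKi libraries for 6 and lower for 4, with a median log2 difference of 0.03, against 0.01 over all genes tested. These signs were not stable: by limma voom 2 of 10 were higher in the MEKi libraries, without MEKi 1 the count was 8, and without MEKi 2, control 3 or control 4 it was 1 in each case. The median difference ran from -0.238 without control 4 to 0.252 without control 2. In bulk tissue fewer cells of a type and less RNA per cell cannot be told apart.

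**Figure D1:**
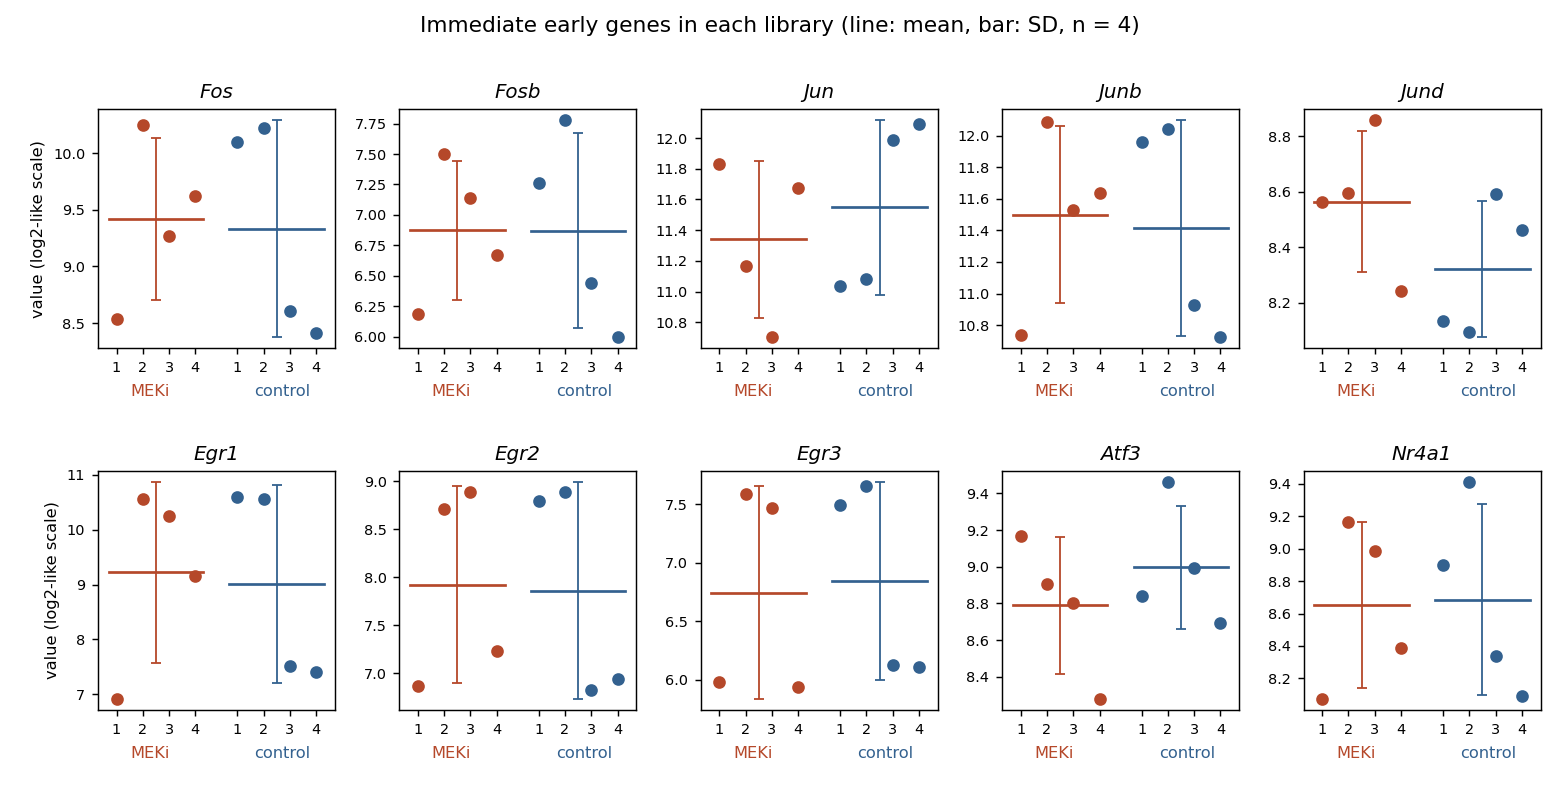
Value of each of the 10 genes (vertical axes, log2-like scale) in MEKi replicates 1 to 4 and control replicates 1 to 4 (horizontal axes); points are libraries, horizontal lines are label means and bars are SD (n = 4). High and low libraries occur under both labels, for example Egr1 at 6.91 in MEKi 1 and 10.55 in MEKi 2, and at 7.40 in control 4 and 10.59 in control 1.

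Fos, which encodes the FOS subunit of AP-1 (chromosome 12, 85473890 to 85477273, GRCm38), had values of 8.53, 10.24, 9.27 and 9.62 in MEKi replicates 1 to 4, against 10.10, 10.22, 8.60 and 8.41 in control replicates 1 to 4. MEKi 1, control 3 and control 4 were low, MEKi 2, control 1 and control 2 were high, and the labels overlapped. The means were 9.42 ± 0.71 in the MEKi libraries and 9.33 ± 0.96 in the control libraries (SD, n = 4 each), a log2 difference of 0.08 with a 95% interval of -0.998 to 1.17 (limma adjusted p = 0.9996). In reads the range was from 227 in control 4 to 1307 in control 2. After scaling for depth, the highest library, MEKi 2, held 4.17 times as many Fos reads as the lowest, control 4.

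Fosb, a close relative of Fos that also pairs with JUN proteins (chromosome 7, 19302696 to 19310051), gave 6.19, 7.50, 7.14 and 6.68 in MEKi replicates 1 to 4, against 7.26, 7.78, 6.44 and 6.0 in control replicates 1 to 4. The same 3 libraries that were lowest for Fos were lowest here. The log2 difference was 0.00 (interval -0.91 to 0.91). Fosb was thinly covered, with between 11 and 181 reads per library, so that its log2 values understate its changes: depth-scaled reads differed 11.7-fold between control 2 and control 4.

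Junb, which encodes a JUN protein that is itself strongly induced by growth factors (chromosome 8, 84974484 to 84978718), had 10.74, 12.09, 11.53 and 11.63 in MEKi replicates 1 to 4, against 11.96, 12.04, 10.93 and 10.72 in control replicates 1 to 4. It followed the order of Fos in all 8 libraries. The log2 difference was 0.08 (interval -0.72 to 0.89). Junb overlaps Prdx2 on the opposite strand, and the sources do not state whether counting used strand. Prdx2, an abundant peroxiredoxin gene, lay between 12.27 and 12.79 in the MEKi libraries and between 12.20 and 12.58 in the control libraries. In the libraries where Junb was low, Prdx2 had 12.47 in MEKi 1, 12.58 in control 4 and 12.20, its lowest value, in control 3.

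Jun, the classical partner of FOS and a target of JNK (chromosome 4, 95049034 to 95052222), ran the other way. Its values were 11.83, 11.17, 10.70 and 11.67 in MEKi replicates 1 to 4, against 11.03, 11.08, 11.99 and 12.09 in control replicates 1 to 4. Control 3, control 4 and MEKi 1, the low libraries for Fos and Junb, held the 3 highest Jun values. The log2 difference was -0.21 (interval -0.91 to 0.49). Jun overlaps the antisense gene Junos, which had at most 103 reads in a library, while Jun had at least 1749.

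Jund, the JUN gene that is expressed without stimulation in most cells (chromosome 8, 70698949 to 70700616), varied least. It had 8.56, 8.60, 8.86 and 8.24 in MEKi replicates 1 to 4, against 8.13, 8.09, 8.59 and 8.46 in control replicates 1 to 4. The means were 8.56 ± 0.25 in the MEKi libraries and 8.32 ± 0.24 in the control libraries (SD, n = 4 each), and MEKi 4 lay below control 3 and control 4. The log2 difference of 0.24 (interval -0.15 to 0.64) had the smallest p of the 10 genes, with a limma adjusted p of 0.9996 and an exact two-sided permutation p of 0.171 over the 70 relabellings. The smallest p that 4 against 4 libraries can give is 0.0286. Over the other 9 genes the exact permutation p ranged from 0.457 to 1. Jund overlaps the antisense gene Gm11175, which was not analysed here.

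Egr1, the zinc finger gene most often used as an early readout of ERK (chromosome 18, 34859823 to 34864984), showed the widest range. It had 6.91, 10.55, 10.26 and 9.16 in MEKi replicates 1 to 4, against 10.59, 10.56, 7.51 and 7.40 in control replicates 1 to 4. MEKi 1, control 3 and control 4 had 67, 87 and 88 reads, while MEKi 2, MEKi 3, control 1 and control 2 had between 1122 and 1671. MEKi 4, at 792 reads, stood between them. Depth-scaled reads differed 24.1-fold between control 1 and MEKi 1; of the 3 low libraries, 1 is labelled MEKi and 2 are labelled control. The means were 9.22 ± 1.65 in the MEKi libraries and 9.01 ± 1.80 in the control libraries (SD, n = 4 each), a log2 difference of 0.21 with an interval of -1.98 to 2.39. That interval holds changes of several-fold in either direction.

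Egr2, which acts on the same kind of GC-rich site as Egr1 (chromosome 10, 67535475 to 67542188), had 6.86, 8.72, 8.89 and 7.23 in MEKi replicates 1 to 4, against 8.79, 8.89, 6.83 and 6.94 in control replicates 1 to 4. Egr3, itself known as a target of other early signals in lymphocytes and neurons (chromosome 14, 70077203 to 70082614), had 5.98, 7.59, 7.47 and 5.93 in MEKi replicates 1 to 4, against 7.50, 7.66, 6.13 and 6.10 in control replicates 1 to 4. For both genes the libraries fell into separate sets, with MEKi 2, MEKi 3, control 1 and control 2 high and the other 4 low. The empty stretch between the sets took up 71.8% of the range for Egr2 and 77.9% for Egr3. The log2 differences were 0.06 for Egr2 (interval -1.32 to 1.45) and -0.10 for Egr3 (interval -1.24 to 1.03). Egr3 had between 13 and 161 reads per library, and its difference was -0.53 by limma voom on the reads, against -0.10 on the deposited scale.

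Nr4a1, which encodes the orphan nuclear receptor NUR77 (chromosome 15, 101254269 to 101274795), had 8.07, 9.17, 8.99 and 8.39 in MEKi replicates 1 to 4, against 8.90, 9.41, 8.34 and 8.09 in control replicates 1 to 4. Again MEKi 2, MEKi 3, control 1 and control 2 held the 4 highest values. The log2 difference was -0.03 (interval -0.76 to 0.70). Atf3, a bZIP gene induced by stress and by unfolded protein signals (chromosome 1, 191170296 to 191218039), had 9.17, 8.91, 8.80 and 8.28 in MEKi replicates 1 to 4, against 8.84, 9.46, 8.99 and 8.69 in control replicates 1 to 4. Its order over the libraries was unlike that of the other genes: MEKi 1, low for Fos and Egr1, held its second highest value. The log2 difference of Atf3 was -0.21 (interval -0.71 to 0.29).

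**Figure D2:**
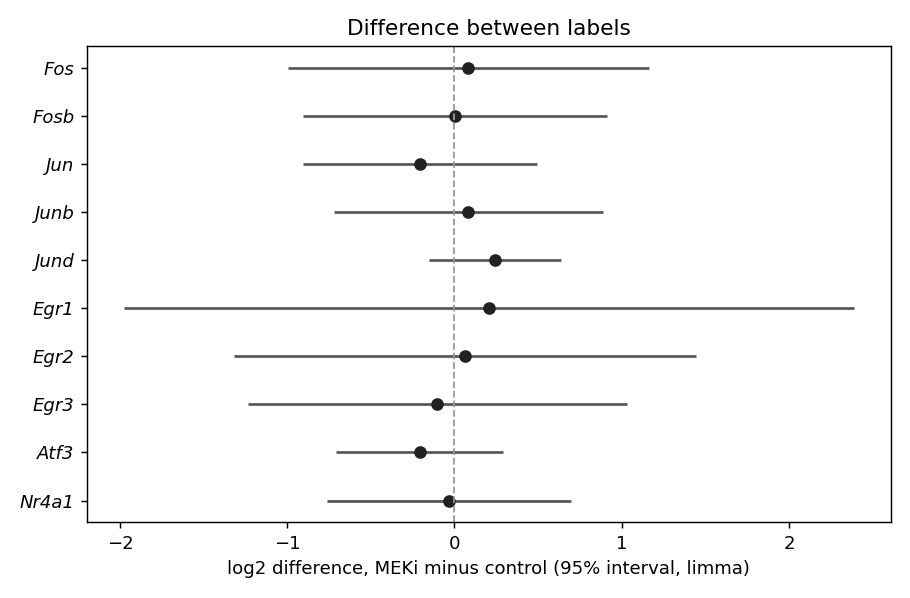
Log2 difference, MEKi minus control, of each of the 10 genes (horizontal axis) with its 95% interval from limma; the dashed line marks 0. All 10 intervals include 0, and that of Egr1, from -1.98 to 2.39, is the widest.

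Leaving out each library in turn moved the Egr1 difference between -0.33 without control 4 and 0.98 without MEKi 1, the Fos difference between -0.22 and 0.38, and the Egr2 difference between -0.28 and 0.42. Jund stayed higher in the MEKi libraries (0.15 to 0.35) and Atf3 stayed lower (-0.33 to -0.04) in all 8 of these fits. In each of them 0 of the 10 genes were called by limma, with 0 at an unadjusted p below 0.05.

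The spread between mice under 1 label was large for this group of genes. The SD over the 8 libraries had a median of 0.61 for the 10 genes, against 0.21 for all genes tested. For 8 of the 10 the SD lay above the 90th percentile of all genes, with Egr1 at the 99.7th (SD 1.60), Egr2 at the 99.1st (1.001) and Egr3 at the 98.3rd (0.82). Atf3 (82.4th) and Jund (67.9th) were the exceptions. Among genes of similar mean the count above the 90th percentile was 7 of 10, from Egr1 at the 99.7th down to Fosb at the 94.3rd, with Nr4a1 at the 89.5th, Atf3 at the 76.8th and Jund at the 54.4th. The label accounted for under 1% of the sum of squares of 7 genes, from 0.00118% for Fosb to 0.594% for Junb. It accounted for 4.64% for Jun, 10.2% for Atf3 and 24.2% for Jund, against a median of 6.34% over all genes tested.

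**Figure D3:**
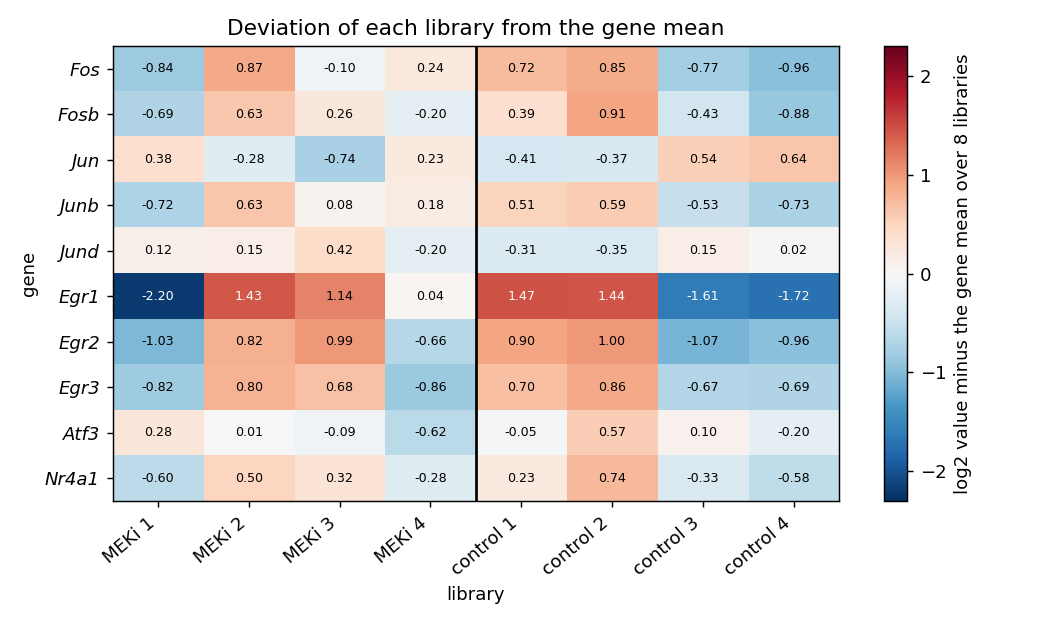
Value of each gene (rows) in each library (columns, MEKi left of the line and control right of it) minus the mean of that gene over the 8 libraries, on the log2-like scale; red is above and blue below the mean. MEKi 1, control 3 and control 4 are below the mean for Fos, Fosb, Junb, Egr1, Egr2, Egr3 and Nr4a1 and above it for Jun.

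Covariation between the genes was then measured over the 8 libraries. Since Egr2 and Egr3 fell into separate sets (a gap of over 50% of the range), no pooled correlation is given for them, which left 28 of the 45 pairs. Pearson correlations passed an adjusted p of 0.05 in exact permutation tests (two-sided, adjusted over the 45 pairs) for 13 pairs. All 10 pairs among Fos, Fosb, Junb, Egr1 and Nr4a1 were among them and positive, and these 10 also passed by Spearman's rho. The closest pair was Fos and Junb, with r = 0.992 (exact permutation p = 2.48e-05, adjusted p = 0.00112) and rho = 1 (exact permutation p = 4.96e-05, adjusted p = 0.00223). That Pearson p is the smallest that 8 libraries can give. Fosb and Nr4a1 followed with r = 0.986 (adjusted p = 0.00502, exact permutation test) and rho = 0.952 (adjusted p = 0.0128). How many pairs of other genes would pass over these 8 libraries was not computed. Genes outside the 10 also reached such values, for example St3gal6 (0.99) and Nup98 (0.986) with Fos. The count of 13 therefore does not show covariation particular to these genes.

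The other 3 of the 13 pairs were negative, and each included Jun. Jun and Egr1 had r = -0.902 (exact permutation p = 0.00694, adjusted p = 0.0208) and rho = -0.786 (adjusted p = 0.0698). Jun and Nr4a1 had r = -0.863 and Jun and Fosb had r = -0.852 (adjusted p = 0.0385 and 0.0363, exact permutation tests), with rho of -0.738 and -0.762. Neither Jund nor Atf3 passed with any other gene. Leaving out the 2 libraries farthest from the median of the first gene left 2 of the 13 pairs past the threshold, Fos with Junb (r = 0.992) and Fosb with Egr1 (r = 0.964). The other 11 kept their sign, with r between 0.739 and 0.983 for the positive pairs and between -0.94 and -0.83 for the negative ones, with adjusted p between 0.0521 and 0.183 in the same exact permutation test. Among these 11, r weakened in most, for example from 0.869 to 0.739 for Fos with Nr4a1. It strengthened only for Jun with Egr1 and Jun with Nr4a1. Since 6 libraries cannot give a p below 0.00139, the lost calls alone cannot decide how far the relations depend on the libraries left out.

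Levels between genes were compared per kilobase of annotated exon, after scaling reads for depth. Junb (1277 ± 488, SD over 8 libraries) and Jun (902 ± 318) were the most abundant, and Junb was above Jun in 5 of 8 libraries. Jun was above Fos (291 ± 160) in 8 of 8. Fos, Atf3 (195 ± 53.9), Egr1 (175 ± 145) and Jund (172 ± 38.4) did not keep a fixed order, since each exceeded the next in only 4 or 5 of 8 libraries. Nr4a1 (104 ± 43.2) lay above Egr2 (66.6 ± 50.7) and Egr2 above Egr3 (15.9 ± 13.5) in 8 of 8 libraries. Fosb was the least abundant at 11.1 ± 8.16, below Egr3 in 5 of 8. Exon lengths are from GENCODE M21, and the transcripts in use in these tumours may differ from its models.

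Jun and Junb exchanged the lead between libraries. Among the length-scaled reads of 7 FOS and JUN family genes (the 5 AP-1 genes above with Fosl1 and Fosl2), Jun made up 44.99%, 18.4%, 18.95% and 32.1% in MEKi replicates 1 to 4, against 18.66%, 18%, 45.5% and 50.5% in control replicates 1 to 4. Junb made up 28.7%, 49.03%, 47.6% and 43.4% in the MEKi libraries, against 50.01%, 49.4%, 29.6% and 26.4% in the control libraries. Jun was therefore the leading transcript in MEKi 1, control 3 and control 4, and Junb in the other 5 libraries. By label, Jun averaged 28.6% ± 12.6 in the MEKi libraries and 33.1% ± 17.2 in the control libraries (SD, n = 4 each). The Fos share was 9.17% ± 3.14 in the MEKi libraries and 8.82% ± 4.79 in the control libraries. Fosb stayed below 1% in every library.

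**Figure D4:**
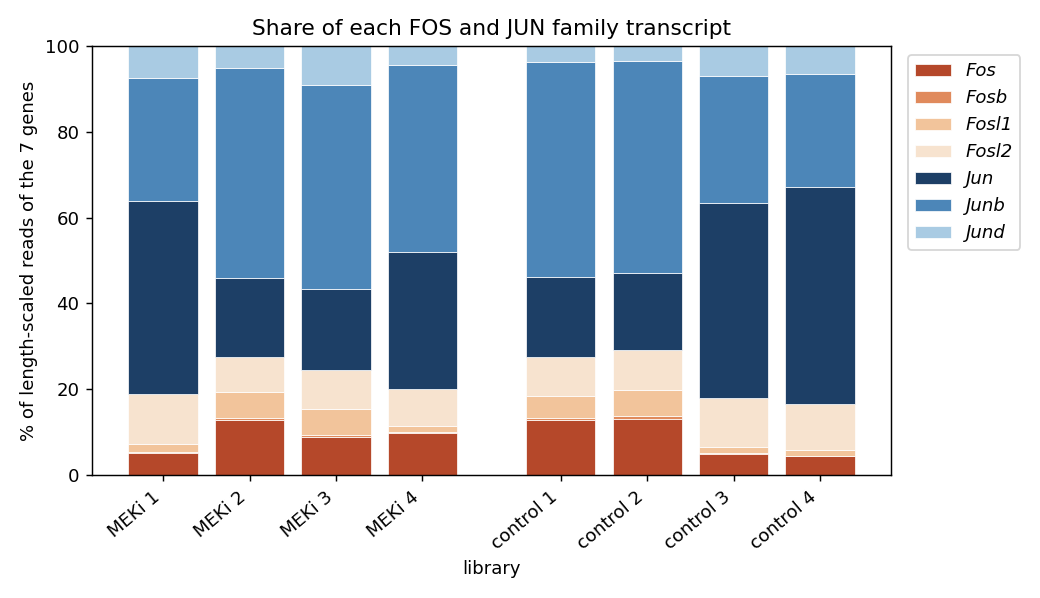
Share of each FOS and JUN family transcript (colours) in the depth-scaled and length-scaled reads of the 7 genes, in percent, for each library. Jun takes 44.99% to 50.5% in MEKi 1, control 3 and control 4 and at most 32.1% in the other 5 libraries, where Junb leads.

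The libraries high for Egr1 were those high for known outputs of ERK. This relation was chosen after the data were seen, so its p-values are given as a description and not as a planned test. The largest gap between neighbouring Egr1 values took up 44.9% of its range, not far below the 50% above which no pooled correlation is given. The mean of 14 ERK feedback and output genes, none of them among the 10, was 8.96, 10.56, 10.36 and 9.70 in MEKi replicates 1 to 4, against 10.49, 10.46, 9.19 and 8.95 in control replicates 1 to 4. Egr1 followed it with r = 0.992 (exact permutation p = 0.000248, adjusted p = 0.00149) and rho = 0.905 (adjusted p = 0.0114), where p-values are two-sided and adjusted over the 10 genes. Correlations were also positive for Fosb (r = 0.958, adjusted p = 0.00149, exact permutation test), Junb (r = 0.955, adjusted p = 0.00504), Nr4a1 (r = 0.945, adjusted p = 0.00663) and Fos (r = 0.924, adjusted p = 0.0105). Jun was negative (r = -0.922, adjusted p = 0.0105, exact permutation test; rho = -0.762, adjusted p = 0.0525). Jund (r = -0.213) and Atf3 (r = 0.138) did not pass, with adjusted p of 0.671 and 0.74 in the same exact permutation test.

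Without MEKi 1 and control 4, the 2 libraries farthest from the list's median, Egr1 (r = 0.988) and Fosb (r = 0.909) still passed at an adjusted p of 0.0486 in exact permutation tests, while Junb (r = 0.894), Nr4a1 (0.886), Fos (0.840) and Jun (-0.897) gave adjusted p between 0.0532 and 0.0536. With 6 libraries the smallest p is 0.00139, and the values lie close to the threshold on both sides. The libraries lay mostly near the ends of this measure, with MEKi 4 alone in the middle. MEKi 4 was also where the genes parted: its Fos and Junb values were nearer those of the high libraries, while its Egr2 and Egr3 values were among the low ones. MEKi 4 also stood apart over all genes by the ratio given above, which rises with depth.

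**Figure D5:**
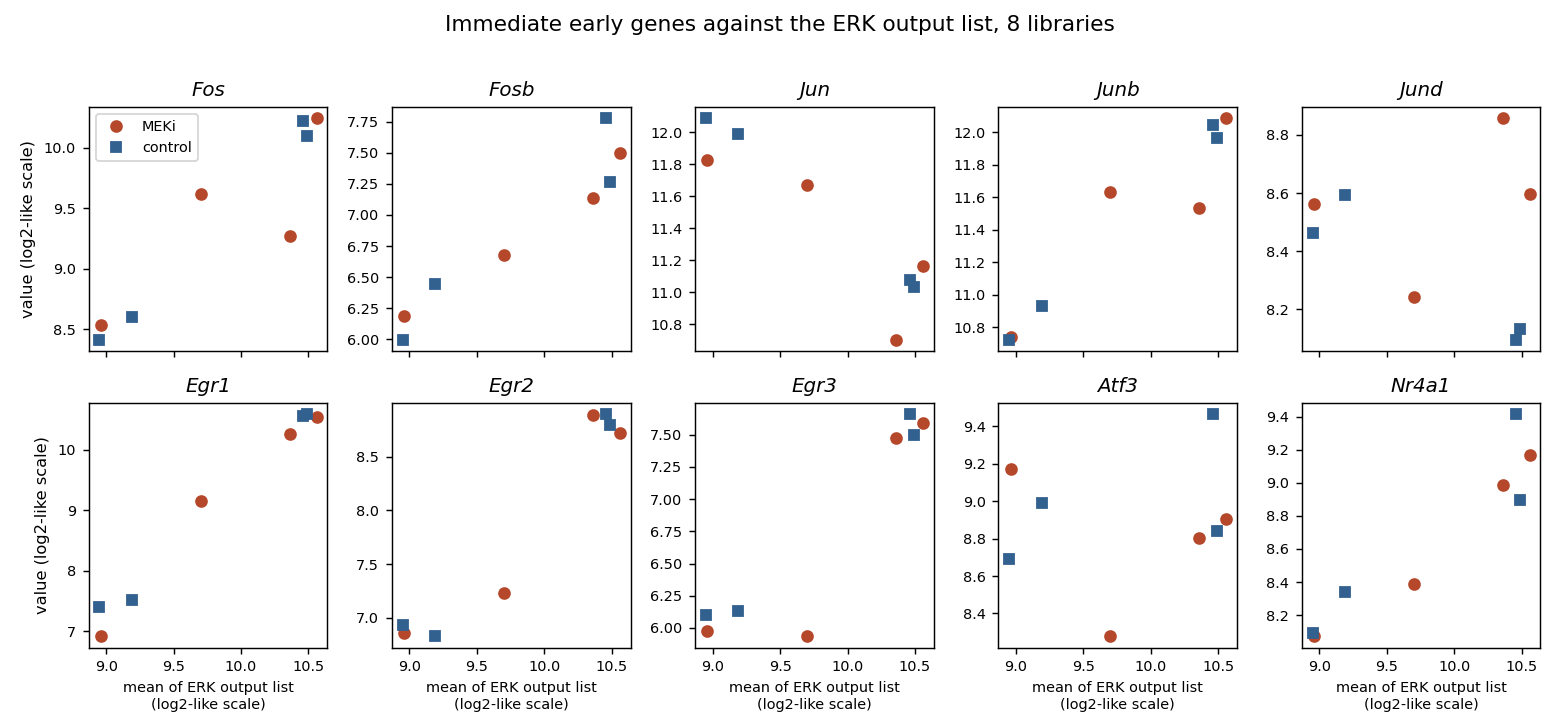
Value of each of the 10 genes (vertical axes) against the mean of 14 ERK feedback and output genes (horizontal axes), both on the log2-like scale; circles are MEKi libraries and squares control libraries, 8 in all. Egr1 (r = 0.992) rises along the axis, Jun (r = -0.922) falls, and Jund and Atf3 do not follow it.

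Cell type markers were set beside this pattern. The 4 endothelial markers moved with it in part, with list means of 9.21, 10.12, 9.45 and 9.60 in MEKi replicates 1 to 4, against 10.40, 10.50, 9.51 and 9.04 in control replicates 1 to 4. Their summed depth-scaled reads ranged from 2162 to 4321 in the MEKi libraries and from 2021 to 5756 in the control libraries, and 4 of 4 had reads in every library. The part of these cells in the result was not tested. The libraries with the highest acinar list means, control 2 (14.58) and control 3 (16.20), had Egr1 values of 10.56 and 7.51. With those 2 libraries left out, the correlation of Egr1 with the ERK output list was 0.99 (adjusted p = 0.0243, exact permutation test). Reads in genes numbered 27144478 in MEKi 1, 22243966 in control 3 and 20090101 in control 4, where Egr1 was low, 38569550 in MEKi 4, and 20182531 in MEKi 2, 29919922 in MEKi 3, 23004843 in control 1 and 31797960 in control 2, where it was high. The part of depth was not tested.

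Handling of tissue can induce both immediate early and heat shock genes. The heat shock list (11 genes) averaged 11.42, 11.64, 11.34 and 10.91 in MEKi replicates 1 to 4. In control replicates 1 to 4 it averaged 11.68, 11.65, 11.29 and 11.22. The same 3 libraries, MEKi 2, control 1 and control 2, were highest for Fos and for this list. The other libraries did not keep the order of Fos. MEKi 4 was lowest for this list, while its Fos value (9.62) lay above those of MEKi 1 (8.53) and MEKi 3 (9.27). MEKi 1 lay above MEKi 3 for this list. The part of the heat shock list in the spread was not tested. By label, limma called 0 of the 11 genes with 0 at an unadjusted p below 0.05, and 7 of 11 had lower means in the MEKi libraries (median log2 difference -0.12). Hspb1, a small heat shock protein gene and the one with the smallest p, had 8.31 ± 0.30 in the MEKi libraries and 8.64 ± 0.43 in the control libraries (SD, n = 4 each).

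Among 12 other AP-1 and partner bZIP genes limma called 0, with 0 at an unadjusted p below 0.05, and the median log2 difference was 0.03. Fosl2, a FOS family gene, had 11.41 ± 0.15 in the MEKi libraries and 11.59 ± 0.08 in the control libraries (difference -0.17), Batf2, an interferon-induced bZIP gene, had 8.50 ± 0.42 and 8.13 ± 0.56, and Atf7, a relative of Atf2, had 11.87 ± 0.24 and 11.72 ± 0.11. Among 27 other immediate early genes limma called 0, with 1 at an unadjusted p below 0.05, 13 higher and 14 lower in sign. That gene was Rhob, a small GTPase gene, at 11.59 ± 0.23 in the MEKi libraries and 11.23 ± 0.19 in the control libraries (difference 0.36, SE 0.14, limma adjusted p = 0.9996). Plk2, a polo-like kinase gene, differed by -0.29, and Btg2, an antiproliferative gene, by -0.21. The median SD over libraries was 0.22 for the other bZIP genes and 0.39 for the other immediate early genes, against 0.61 for the 10 genes described.

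Genes upstream of this group varied little. In the list of 14 genes for serum response factor, its cofactors, CREB1 and the stress and MSK kinases, the median SD over the libraries was 0.16, and limma called 0, with 0 at an unadjusted p below 0.05. Srf had 10.10 ± 0.08 in the MEKi libraries and 9.92 ± 0.20 in the control libraries, Mapk14 (the p38 alpha kinase) had 11.72 ± 0.06 and 11.60 ± 0.08, and Creb1 had 11.38 ± 0.20 and 11.24 ± 0.12 (SD, n = 4 each). The EGR corepressor genes Nab1 and Nab2 differed by -0.08 and 0.05. In the ERK output list limma called 0 of 14, with 0 at an unadjusted p below 0.05 and a median difference of 0.19. Epha4, Etv1 and Phlda1, its genes with the smallest p, differed by 0.39, -0.41 and 0.43.

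Genes known as AP-1 targets had lower means in the MEKi libraries for 13 of 14, against 9268 of all 19129 genes. Their median log2 difference was -0.20, against 0.01 over all genes. The list mean was 9.87, 10.9, 10.21 and 9.53 in MEKi replicates 1 to 4. In control replicates 1 to 4 it was 10.9, 11.14, 10.02 and 9.68. The labels overlapped, with MEKi 2, control 1 and control 2 highest. The sign count leaned on control 2, the library with the highest list mean. With control 2 left out, Mmp10, Mmp13, Plaur and Areg were among the genes whose mean was higher in the MEKi libraries. Limma called 0 of these 14 genes, with 1 at an unadjusted p below 0.05. Mmp3, the stromelysin gene, had 9.06, 8.34, 7.72 and 8.53 in MEKi replicates 1 to 4, against 8.74, 9.88, 9.70 and 8.78 in control replicates 1 to 4, a difference of -0.86 (SE 0.34, limma adjusted p = 0.9996). MEKi 1 lay above control 1 and control 4. The cytokine gene Il6 differed by -0.70 and the metalloprotease inhibitor gene Timp1 by -0.64. Fibroblasts are a known source of all 3 transcripts, and fibroblast markers were also lower in sign for 6 of 6 (median difference -0.50, summed depth-scaled reads 48929 to 77612 in the MEKi libraries and 43486 to 114510 in the control libraries, all 6 with reads in every library). Limma called 0 of the 6, with 1 at an unadjusted p below 0.05, Pdpn. Their part in the difference was not tested. Markers were also lower in sign for 7 of 7 macrophage, 5 of 5 neutrophil, 4 of 4 endothelial and 10 of 10 acinar genes (median -4.09), against 9268 of all 19129 genes. Higher in sign were 4 of 4 B cell (median 0.44) and 4 of 4 smooth muscle genes (median 0.18). T cell genes (3 of 5 lower) and epithelial tumour genes (4 of 7 lower) were mixed. Limma called 0 in each of these lists. At an unadjusted p below 0.05 there were 1 acinar gene (Prss2), 1 smooth muscle gene (Myh11) and 0 in the other lists.

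The genes most like 5 of the 10 were sought by Pearson's r over the 8 libraries among 9344 genes with a mean above the median, as a description. Egr1 was followed most closely by Dusp6 (r = 0.997), an ERK phosphatase gene, Errfi1 (0.996), an EGFR feedback inhibitor gene, and Spry4 (0.99), a Sprouty gene. Nr4a1 was followed by Pim3 (0.981), a serine/threonine kinase gene, Rusc2 (0.98) and Hs3st1 (0.977), a heparan sulfate sulfotransferase gene. For Fos they were St3gal6 (0.99), a sialyltransferase gene, Nup98 (0.986), a nuclear pore gene, and Cldn2 (0.982), a tight junction gene. Jun had Atp7b (0.99), a copper transporter gene, Ift27 (0.982) and Tmprss2 (0.98), a transmembrane protease gene. Atf3 had Ttf2 (0.967), Lrrc59 (0.963) and Slc19a1 (0.962), a folate carrier gene. Atp7b had 10.49, 9.99, 9.44 and 10.38 in MEKi replicates 1 to 4, against 9.77, 9.73, 10.65 and 10.61 in control replicates 1 to 4, high where Jun was high.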

How the data were processed

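Total RNA from 8 tumours was made into strand-specific libraries with a TruSeq kit and sequenced on a HiSeq instrument, per the labels' protocols. STAR 2.5.3a, DESeq2 1.18.1 and the build GRCm38 are named in the submitters' processing notes; neither annotation, counting step nor filter is stated. The authors deposited log2-like variance-stabilised values whose lowest is 5.12. Undoing that transformation recovered whole reads for 100% of values (within 0.01 of a whole number).

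Of 19431 rows, 32 name no gene (0.101% to 0.167% of the reads of a library) and were left out. Where a symbol had several rows (86 symbols), only its most abundant row was used. Members and lists were chosen with earlier results of these data known. Differences over 19129 genes came from limma 3.58.1, run in R 4.3.3 (trend, no covariates, two-sided, Benjamini-Hochberg over all genes, threshold 0.05). Correlations used exact permutation of the 8 libraries. Named genes were the 10 members, up to 3 genes per list with the smallest p and, for 5 members, the 3 genes of highest r. Replicate numbers run from 1 to 4 under both labels without a stated link, so libraries were not paired. The closest pair of libraries, MEKi 1 and control 4, differed by 4.4 times the counting noise, so that none was counted as a repeat. Settings varied were the moderation (robust, or without a trend), the scaling (quantile, or medians aligned), the rows tested (the top 75% by mean, or every row), limma voom on recovered reads, the acinar mean as a covariate, a replicate block and leaving out each library. Relations to the ERK output list, and leaving out both acinar-rich control libraries, were chosen after seeing the data. Plots used matplotlib 3.10.9.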

Additional observations from a re-analysis of the deposited data

How the results depend on the processing

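In all 18 alternatives 0 of the 10 genes and 0 of the companion genes were called by limma. The count of genes called across the table, 1, was 0 with the 75% of genes of highest mean, with the acinar covariate and with the replicate block, 4 without both acinar-rich control libraries (control 2 and control 3), and between 0 and 2 with each library left out. Signs of the small differences turned as follows. By limma voom on recovered reads Fos was -0.013, Fosb -0.032, Egr1 -0.002 and Egr2 -0.075; with the acinar covariate Egr1 was -0.081 and Egr2 -0.271; without both acinar-rich controls Atf3 was 0.023 and Nr4a1 0.157. Leaving out each library gave -0.223 to 0.38 for Fos, -0.288 to 0.307 for Fosb, -0.378 to 0.006 for Jun, -0.147 to 0.337 for Junb, -0.332 to 0.975 for Egr1, -0.282 to 0.417 for Egr2, -0.385 to 0.168 for Egr3 and -0.23 to 0.21 for Nr4a1. The cause was not tested. With 1 library of each label per replicate number, a replicate block cannot move a difference (0.206 for Egr1 in both fits), only its error. That fit called 0 of the 10 genes. Deviations from the label means correlated at -0.428, 0.25, -0.634 and -0.0864 between same-numbered libraries, for replicates 1 to 4. Between libraries of unlike number the correlations ran from -0.412 to 0.48. With 4 libraries per label, these values cannot decide whether the numbers pair the libraries. Without the 2 libraries farthest from the median, the 13 pairs past the threshold became 2, and r turned to -0.192 for Fosb with Atf3, 0.598 for Jun with Jund, 0.297 for Jund with Egr1, 0.615 for Jund with Atf3, 0.517 for Jund with Nr4a1 and -0.283 for Atf3 with Nr4a1, none of which had passed. Without both acinar-rich controls, the relation to the ERK output list was 0.032 for Jund and -0.05 for Atf3. Depth limits Fosb and Egr3 most, at 11 and 13 reads in their lowest libraries.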

Other observations

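Other genes of the companion lists, chosen after their values were seen, were high and low in the same libraries as Egr2 and Egr3, MEKi 4 included among the low ones. The proto-oncogene Myc had 10.06, 12.31, 11.72 and 10.23 in MEKi replicates 1 to 4, against 12.22, 12.23, 10.70 and 10.01 in control replicates 1 to 4. The FOS family gene Fosl1 had 7.25, 9.06, 8.60 and 7.25 in the MEKi libraries, against 8.76, 9.03, 7.16 and 7.03 in the control libraries. Areg, which encodes the EGFR ligand amphiregulin, had 6.19, 9.17, 7.58 and 6.29 in the MEKi libraries, against 8.85, 8.93, 6.75 and 6.0 in the control libraries.

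Gadd45b, a stress-induced gene of the same list of immediate early genes, ran the other way, as Jun did. It had 10.53, 9.18, 9.15 and 8.83 in MEKi replicates 1 to 4, against 9.14, 9.23, 10.22 and 10.35 in control replicates 1 to 4, with its 3 highest values in MEKi 1, control 4 and control 3. Unlike Jun, it was low in MEKi 4. The list also holds Nr4a2 and Nr4a3, relatives of Nr4a1. Nr4a2 had 9.02, 8.72, 8.98 and 9.12 in the MEKi libraries, against 8.70, 8.73, 9.21 and 9.14 in the control libraries, and its order was not that of Nr4a1. Nr4a3 had 6.88, 7.43, 8.01 and 6.90 in the MEKi libraries, against 7.54, 7.93, 6.69 and 6.73 in the control libraries. It was highest in MEKi 2, MEKi 3, control 1 and control 2, as Nr4a1 was. These values were chosen for their pattern and were not tested.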
